A study of Mus musculus with 12 samples.

Results

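The mRNAs of 8 keratins, 4 that mark luminal and 4 that mark basal cells of the mammary gland, were compared between HER2-driven mammary tumors and benign mammary tissue. Krt7, Krt8, Krt18 and Krt19 are the luminal members, and Krt5, Krt14, Krt15 and Krt17 are the basal members. They were taken by gene symbol from the 16411 genes of the count table, with earlier results of these data known. All 8 passed the filter on low counts.

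The study sequenced RNA from 6 tumors and 6 benign samples. The donors were female MMTV/neu ndl-YD5 mice (MMTV-Neu-NDL-YD5 transgenic in the labels) on an FVB background. All 12 samples carried the same transgene, an activated HER2 driven in mammary epithelium by the MMTV promoter, so the benign samples are not wild-type tissue. Benign tissue was mammary gland without a visible tumor, taken far from the tumor site, and the tumors and benign samples that were sequenced came from different mice. The age of each mouse is not given in the sources used here.

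Keratins form the intermediate filaments of epithelial cells. Each filament is built from a type II keratin (here Krt5, Krt7 and Krt8) paired with a type I keratin (here Krt14, Krt15, Krt17, Krt18 and Krt19). In the mammary ducts the inner, luminal layer is known for the pair Krt8 and Krt18 together with Krt7 and Krt19. The outer, basal layer of contractile myoepithelial cells is known for the pair Krt5 and Krt14, with Krt15 and Krt17 in subsets of basal cells.

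Levels are in CPM, the deposited estimated counts scaled to library size with the TMM method of edgeR. The benign libraries held 5240853 to 8170687 counts each and the tumor libraries 6111393 to 8588567, and 3 counts corresponded to 0.329 to 0.556 CPM in a library. Calls were made with edgeR's two-sided quasi-likelihood test at an adjusted p-value under 0.1, over 13191 genes. Of all genes tested, 28.2% were called higher and 34.8% lower in tumors, and the median log2 fold change was -0.06. All 6 tumors lay above all 6 benign samples for 14.7% of genes, and below all of them for 21.2%.

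The labels were checked with Erbb2, the gene of HER2, whose row cannot separate the transgene from the mouse gene. Erbb2 lay between 44.8 and 73.7 CPM in the benign samples, and between 1989 and 16634 CPM in the tumors. Benign samples 3, 4 and 6 carried 38893 to 99183 CPM of a list of 14 skeletal muscle genes, against 36.9 to 414 CPM in benign samples 1, 2 and 5. Benign sample 1 carried 1387 CPM of a list of 12 immune genes, against 143 to 238 CPM in the other benign samples. In bulk tissue, fewer cells of a type and less RNA per cell cannot be told apart.

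The 8 genes lie in the type I and the type II keratin clusters of the mouse genome. On chromosome 11 of GRCm38 (mm10), in the GENCODE M21 annotation, the type I genes Krt15 (100131758 to 100135928), Krt19 (100140810 to 100148665), Krt14 (100203162 to 100207548) and Krt17 (100256217 to 100261029) follow each other on the minus strand within 129 kb. Krt15 and Krt19 are 4.88 kb apart. On chromosome 15 lie Krt7 (101411043 to 101430313, plus strand), Krt5 (101707070 to 101712898, minus strand), Krt8 (101996698 to 102004482, minus strand) and Krt18 (102028180 to 102032027, plus strand). Krt18, a type I gene, stands at the end of the type II cluster, 23.7 kb from its partner Krt8.

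The sequence before the RefSeq start site is shown for the pair Krt8 and Krt18 and for the pair Krt5 and Krt14, because in each pair both genes moved in the same direction. RefSeq promoters on GRCm38.p6 were at hand for 5 of the 8 genes (Krt7, Krt8, Krt18, Krt5 and Krt14). The windows are the 250 bases upstream of the RefSeq start, on the strand of the gene, at chr15:102004343-102004592 (minus) for Krt8, chr15:102027966-102028215 (plus) for Krt18, chr15:101712906-101713155 (minus) for Krt5 and chr11:100206031-100206280 (minus) for Krt14. The RefSeq starts differ from the ends of the GENCODE gene spans given above, so that the Krt14 window lies inside the Krt14 span and the Krt8 and Krt18 windows overlap theirs. A set of 5 motifs was searched on both strands, and capitals mark each match. The E-box, a site of many developmental regulators, was spelled CACCTG. The site of the factor AP-2 was spelled GCCNNNGGC. The GC box of the factor Sp1 was spelled GGGCGG, so that it can overlap the AP-2 site. The TATA box of the general start machinery was spelled TATAAA. The site of the factor AP-1 was spelled TGANTCA.
Krt8: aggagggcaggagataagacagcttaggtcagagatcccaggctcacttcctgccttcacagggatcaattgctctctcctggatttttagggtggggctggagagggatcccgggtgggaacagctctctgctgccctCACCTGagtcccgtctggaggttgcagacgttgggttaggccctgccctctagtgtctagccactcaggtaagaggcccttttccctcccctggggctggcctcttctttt
Krt18: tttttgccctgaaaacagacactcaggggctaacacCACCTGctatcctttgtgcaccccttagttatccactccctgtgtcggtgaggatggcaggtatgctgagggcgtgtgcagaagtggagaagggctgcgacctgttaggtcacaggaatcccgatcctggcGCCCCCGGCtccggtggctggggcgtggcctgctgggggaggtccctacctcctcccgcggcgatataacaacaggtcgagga
Krt5: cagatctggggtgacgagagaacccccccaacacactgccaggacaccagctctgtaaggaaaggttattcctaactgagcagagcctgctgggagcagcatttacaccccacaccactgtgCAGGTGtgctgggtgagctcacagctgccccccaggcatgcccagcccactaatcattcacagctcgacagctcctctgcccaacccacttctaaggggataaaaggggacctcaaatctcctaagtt
Krt14: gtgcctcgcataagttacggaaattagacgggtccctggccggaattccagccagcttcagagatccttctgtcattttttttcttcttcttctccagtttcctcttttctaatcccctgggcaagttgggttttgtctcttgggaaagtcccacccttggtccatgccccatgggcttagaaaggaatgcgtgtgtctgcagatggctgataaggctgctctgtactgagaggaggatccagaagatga
A single E-box match was found in each of Krt8, Krt18 and Krt5, and a single AP-2 match in Krt18, while no motif was found in the Krt14 window. That window lies inside the Krt14 span, so its lack of matches does not describe the sequence before the upstream end of the span at 100207548. The E-box starts 111 bases upstream of the Krt8 start, 214 bases upstream of the Krt18 start and, on the opposite strand as CAGGTG, 128 bases upstream of the Krt5 start. Of 32851 RefSeq windows of the same length, 17.2% hold the E-box, 13.7% AP-2, 32.7% the GC box, 12.4% the TATA box and 6.75% AP-1. The window of Krt7, not printed here, holds 4 GC boxes, 2 AP-2 matches and 1 E-box. These matches describe letters only, and no binding was measured.

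The luminal keratins did not move as a group. Krt8 and Krt18 were higher in tumors per total mRNA (per epithelial transcript they were not, as given further on), Krt19 was lower, and Krt7 did not pass the test. Per total mRNA 2 of the 4 luminal keratins were called higher and 1 lower, beside 28.2% and 34.8% of all genes.

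Krt8 is the type II partner in the filament pair of simple epithelia. Krt8 was measured at 226, 402, 289, 336, 532 and 199.7 CPM in benign samples 1 to 6, and at 454, 767, 631, 867, 968 and 556 CPM in tumors 1 to 6. All tumors but tumor 1 lay above every benign sample. Mean Krt8 went from 331 ± 123 to 707 ± 195 CPM (SD, n = 6 each), a log2 fold change of 1.10 with an SE of 0.26 (edgeR, adjusted p = 0.0029).

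Krt18 is the type I partner of Krt8. Krt18 was measured at 229, 346, 181, 353, 435 and 184 CPM in benign samples 1 to 6, and at 384, 820, 656, 763, 1526 and 534 CPM in tumors 1 to 6. Again all tumors but tumor 1 lay above every benign sample, and tumor 5 was the highest. Mean Krt18 went from 288 ± 105 to 780.5 ± 398 CPM (SD, n = 6 each), a log2 fold change of 1.44 with an SE of 0.33 (edgeR, adjusted p = 0.0025).

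Krt19, a type I keratin that lacks most of the tail domain, went the other way. Krt19 was measured at 193, 327, 283, 555, 523 and 254 CPM in benign samples 1 to 6, and at 4.67, 14.99, 33.3, 9.31, 5.75 and 11.5 CPM in tumors 1 to 6. The groups did not overlap, and the highest tumor lay well below the lowest benign sample. Mean Krt19 fell from 356 ± 149 to 13.3 ± 10.5 CPM (SD, n = 6 each), 26.8-fold lower, with a log2 fold change of -4.74 and an SE of 0.50 (edgeR, adjusted p = 4.5e-06).

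Krt7, a type II keratin of ductal and glandular epithelia, differed among the tumors. Krt7 was measured at 31.9, 47.6, 33.1, 85.7, 73.5 and 54.1 CPM in benign samples 1 to 6, and at 1.40, 50.9, 67.0, 29.8, 31.8 and 0.768 CPM in tumors 1 to 6. Tumors 1 and 6 had 9 and 7 Krt7 counts, against 221 to 557 in the other 4 tumors and 172 to 589 in benign tissue. In CPM, 4 of 6 tumors lay below every benign sample, tumors 4 and 5 by little. Mean Krt7 was 54.3 ± 21.7 CPM over benign samples, against 30.3 ± 26.4 CPM over tumors (SD, n = 6 each). The log2 fold change of -0.84 had an SE of 0.75 and a 95% interval from -2.30 to 0.62 (edgeR, adjusted p = 0.36), so the direction of Krt7 was not resolved. Tumors 1 and 6 also held the 2 lowest Krt8 values (454 and 556 CPM) and the 2 lowest Krt18 values (384 and 534 CPM) among the tumors.

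All 4 basal keratins fell, beside 34.8% of all genes called lower, and for all 4 every tumor lay below every benign sample. With Krt19, 5 of the 8 keratins had all tumors below all benign samples, beside 21.2% of genes, and no member had all tumors above.

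Krt5 is the type II partner in the basal pair. Krt5 was measured at 79.7, 141, 131.5, 77.1, 137 and 53.3 CPM in benign samples 1 to 6, and at 1.56, 0.275, 14.8, 1.35, 1.15 and 3.73 CPM in tumors 1 to 6. Tumor 3 held the highest value among tumors, and it was still below the lowest benign sample. Mean Krt5 fell from 103 ± 37.7 to 3.81 ± 5.51 CPM (SD, n = 6 each), with a log2 fold change of -4.73 and an SE of 0.70 (edgeR, adjusted p = 8.8e-05). Without tumor 3 the log2 fold change of Krt5 was -5.88.

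Krt14 is the type I partner of Krt5. Krt14 was measured at 67.1, 118, 85.2, 56.6, 73.8 and 40.3 CPM in benign samples 1 to 6, and at 1.40, 1.93, 9.39, 1.62, 0.256 and 1.54 CPM in tumors 1 to 6. As for Krt5, tumor 3 was the highest tumor. Mean Krt14 fell from 73.4 ± 26.5 to 2.69 ± 3.33 CPM (SD, n = 6 each), with a log2 fold change of -4.75 and an SE of 0.60 (edgeR, adjusted p = 2.2e-05). Without tumor 3 the log2 fold change of Krt14 was -5.69.

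Krt15, a type I keratin of basal cells in skin and hair follicles, had the lowest mean level per kb in both groups, although Krt7 was below it in 4 of 6 benign samples. Krt15 was measured at 13.9, 33.4, 20.4, 7.66, 39.3 and 3.37 CPM in benign samples 1 to 6, and at 0, 0, 2.53, 0.405, 0.128 and 0.110 CPM in tumors 1 to 6. The tumor values rest on 0, 0, 21, 3, 1 and 1 counts, so 5 of the 6 tumors were at or under 3 counts and their order was not detectable at this depth. Mean Krt15 fell from 19.7 ± 14.3 to 0.528 ± 0.991 CPM (SD, n = 6 each), with a log2 fold change of -5.13 and an SE of 0.92 (edgeR, adjusted p = 0.00040). The log2 fold change of Krt15 was -7.00 without tumor 3 and -4.15 without benign samples 1, 2 and 5.

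Krt17, a type I keratin known from skin appendages and injured epithelium, had the log2 fold change nearest to 0 among the basal members, with no test between members. Krt17 was measured at 18.0, 46.9, 35.9, 22.6, 21.2 and 20.1 CPM in benign samples 1 to 6, and at 0.156, 2.61, 7.70, 0.945, 14.3 and 1.43 CPM in tumors 1 to 6. Here tumor 5 was the highest, with 112 Krt17 counts where Krt14 had 2. Mean Krt17 fell from 27.4 ± 11.5 to 4.53 ± 5.4998 CPM (SD, n = 6 each), with a log2 fold change of -2.59 and an SE of 0.71 (edgeR, adjusted p = 0.0071). Without tumor 5 the log2 fold change of Krt17 was -3.33.

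**Figure D1:**
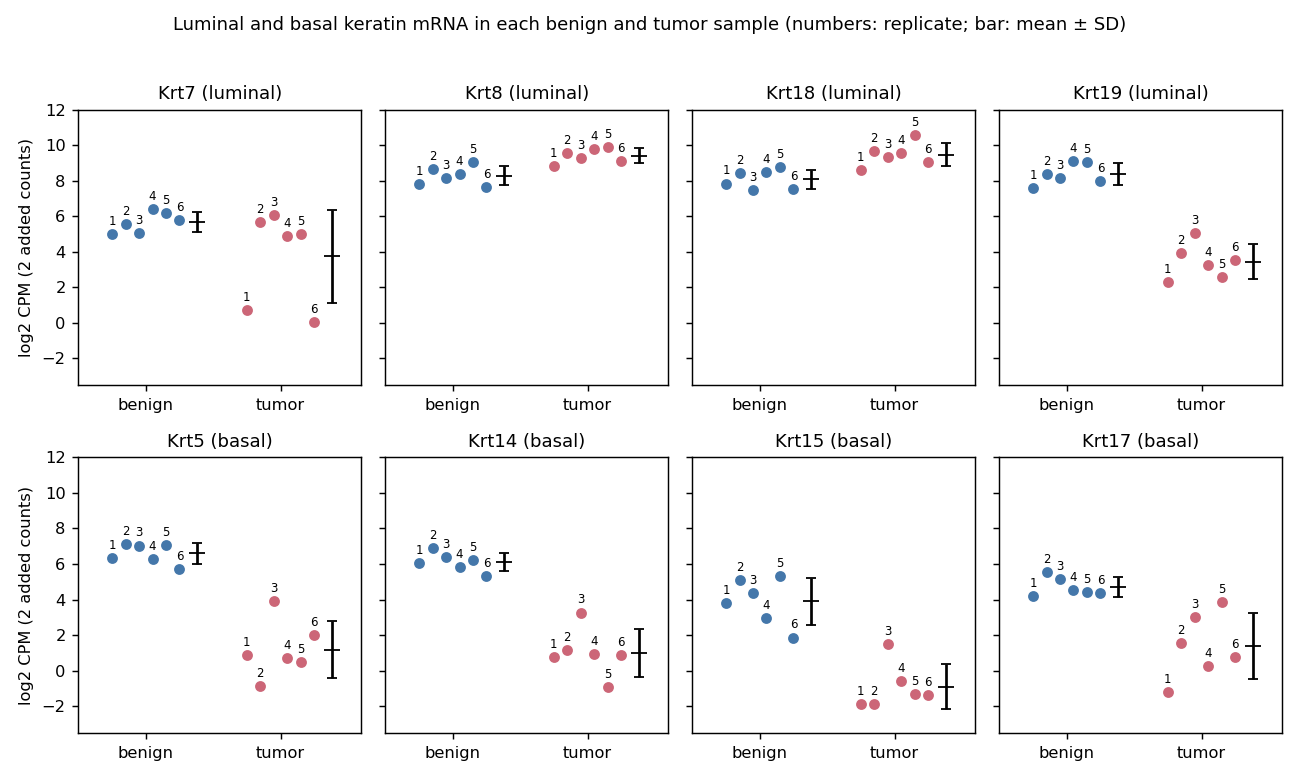
Log2 CPM with 2 added counts (vertical axis) of each of the 8 keratins in benign samples (blue) and tumors (red), with points numbered by replicate and black bars for mean ± SD over 6 samples. On this scale, per total mRNA, Krt8 and Krt18 lie above every benign sample in 5 of 6 tumors (not so per epithelial transcript), Krt7 is lowest in tumors 1 and 6 and just under the lowest benign sample in tumors 4 and 5, and Krt19, Krt5, Krt14, Krt15 and Krt17 sit below every benign sample in all 6 tumors.

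The comparison was also made per epithelial transcript, which sets all samples to an equal mean level of Epcam and Cdh1 mRNA. Each library was scaled to the mean log2 CPM of Epcam and Cdh1, which encode cell surface adhesion proteins of epithelial cells. Both are in the luminal marker list used here, and their log2 fold changes per total mRNA differed, at 2.24 for Epcam and 1.24 for Cdh1. This scale is therefore not a count of the epithelial cells of both layers. The geometric mean of Epcam and Cdh1 lay between 92.0 and 330.3 CPM in the benign samples, and between 531 and 844 CPM in the tumors. Under this scaling 2.56% of all genes were called higher and 90.3% lower, and the median log2 fold change of all genes was -2.02, so a lower call by itself sets no gene apart.

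Per epithelial transcript, Krt8 and Krt18 were no longer higher in tumors. Krt8 had a log2 fold change of -0.71 with an SE of 0.34 (edgeR, adjusted p = 0.053), past the threshold in the lower direction. Krt18 had a log2 fold change of -0.40 with an SE of 0.40 (edgeR, adjusted p = 0.35). The call on Krt8 was lost without benign sample 4 or without tumor 1, 2, 3 or 6, with log2 fold changes of -0.61 to -0.68, and Krt18 was called lower at -0.83 without tumor 5. Scaled to Cdh1 alone, Krt8 was at -0.28 and Krt18 at 0.03, and neither was called. Relative to the median of all genes, Krt8 and Krt18 stood at 1.31 and 1.62 on the log2 scale here, and at 1.16 and 1.499 per total mRNA.

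Krt19 and the basal keratins were lower under both scalings. The log2 fold change per epithelial transcript was -6.77 for Krt19, -6.62 for Krt5, -6.69 for Krt14, -6.79 for Krt15 and -4.39 for Krt17. Without tumor 3 it was -7.64 for Krt5, -7.54 for Krt14 and -8.499 for Krt15, and without tumor 5 it was -5.42 for Krt17. Krt7, which did not pass the test per total mRNA, was lower per epithelial transcript with a log2 fold change of -2.97 and an SE of 0.72 (edgeR, adjusted p = 0.00077), or -2.33 without benign samples 3, 4 and 6. Relative to the median of all genes Krt7 stood at -0.96. In all, 3 of 4 luminal and 4 of 4 basal keratins were called lower, beside 90.3% of all genes.

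Within benign tissue, Krt5 was close to a fixed share of the epithelial transcripts. Krt5 was at 51.6%, 51.2%, 50.04%, 50.8%, 41.4% and 57.9% of the Epcam and Cdh1 mean in benign samples 1 to 6, although Krt5 itself ranged from 53.3 to 141 CPM. In tumors Krt5 was at 0.0328% to 1.75% of that mean. Krt19 was at 108% to 365% in benign tissue, with benign samples 4 and 6 the highest, and at 0.879% to 3.95% in tumors. Krt8 ranged from 109.9% to 221% in benign tissue and from 74.7% to 167% in tumors, so the groups overlapped.

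**Figure D2:**
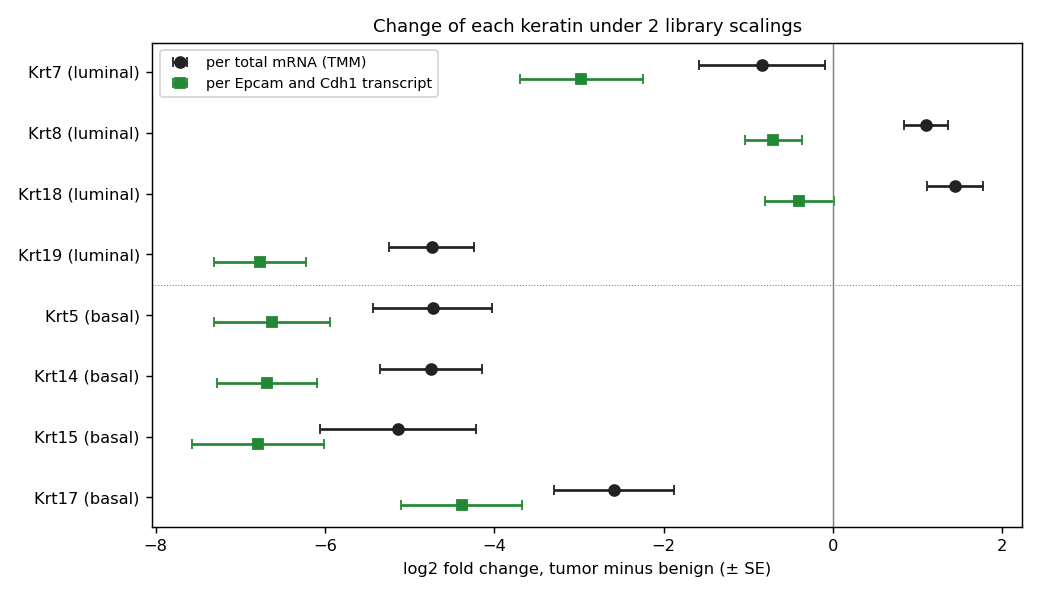
Log2 fold change from benign tissue to tumor (horizontal axis, ± SE) of each of the 8 keratins, per total mRNA (black circles) and per Epcam and Cdh1 transcript (green squares). Krt8 and Krt18 change side between the scalings (1.10 and 1.44 against -0.71 and -0.40), while Krt19 and the basal keratins lie left of 0 under both.

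Levels of different keratins were compared as CPM per kb of the longest annotated transcript. In benign tissue the order of mean levels was Krt19 at 226 ± 94.3, Krt18 at 200.5 ± 72.9, Krt8 at 169 ± 62.8, Krt5 at 47.0 ± 17.1, Krt14 at 43.3 ± 15.6, Krt17 at 17.7 ± 7.39, Krt7 at 13.3 ± 5.30 and Krt15 at 11.6 ± 8.40 CPM per kb (SD, n = 6). Among neighbors in that order, Krt8 and Krt5 alone had ranges that did not overlap. The value of Krt7 depends on its transcript, since the longest has 4094 bases.

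In tumors the order of mean levels was Krt18 at 543 ± 277, Krt8 at 361 ± 99.5, Krt19 at 8.42 ± 6.68, Krt7 at 7.40 ± 6.45, Krt17 at 2.92 ± 3.55, Krt5 at 1.74 ± 2.51, Krt14 at 1.58 ± 1.962 and Krt15 at 0.311 ± 0.583 CPM per kb (SD, n = 6). Krt8 and Krt19 were the neighbors whose ranges did not overlap, and Krt18 was above Krt8 in 6 of 6 tumors. Below that step the tumor ranges of neighbors overlapped, so the order of Krt19, Krt7 and the basal keratins in tumors is not resolved.

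In tumors almost all of the mRNA of these 8 keratins was Krt8 and Krt18. The pair made up 45.1% to 54.9% of the summed level per kb of the 8 keratins in benign tissue (mean 50.5 ± 3.86%) and 93.3% to 99.0% in tumors (mean 97.5 ± 2.15%, SD, n = 6 each). The share of Krt19 went from 24.4% to 40.1% in benign tissue to 0.231% to 2.53% in tumors. The 4 basal keratins together went from 9.98% to 23.9% in benign tissue to 0.244% to 2.24% in tumors. Shares within a sample do not depend on how libraries are scaled.

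**Figure D3:**
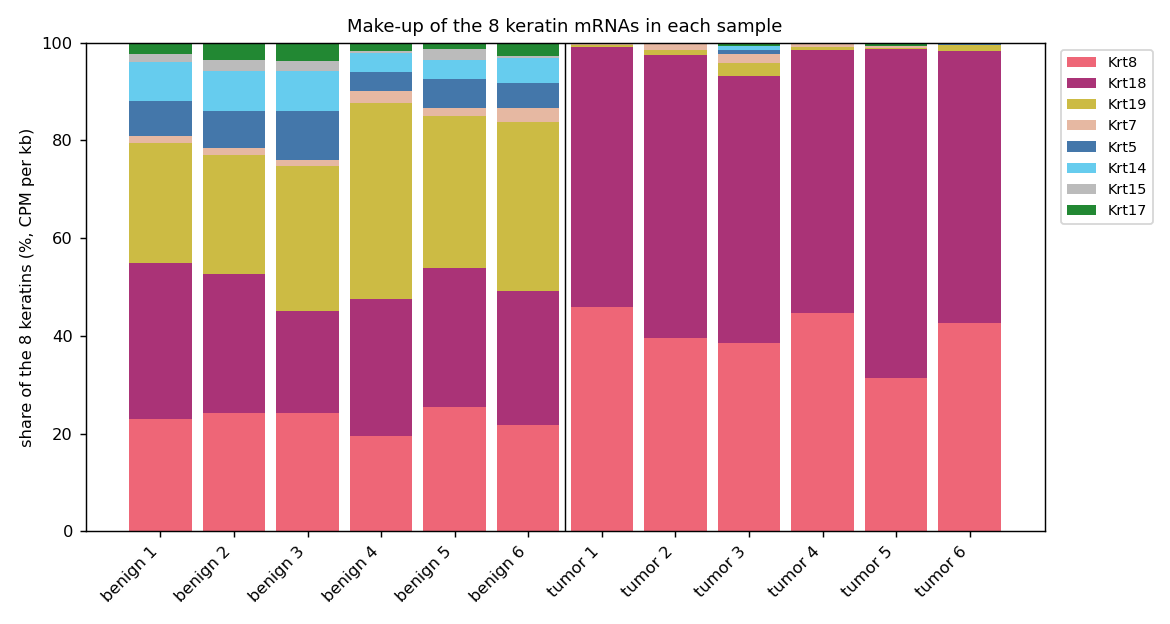
Share of the summed CPM per kb of the 8 keratins (vertical axis, percent) taken by each gene, stacked for every benign and tumor sample. Krt8 and Krt18 (lower segments) fill 93.3% to 99.0% of every tumor bar and 45.1% to 54.9% of every benign bar, and the Krt19 segment is prominent in benign bars alone.

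Differences inside a sample gave the same picture. The mean log2 CPM of the luminal keratins minus that of the basal keratins ranged from 1.47 to 3.20 in benign tissue (mean 2.27 ± 0.71) and from 4.53 to 7.23 in tumors (mean 5.86 ± 1.06, SD, n = 6 each), a difference of 3.59 with no test. Krt18 minus Krt19 ranged from -0.65 to 0.25 log2 units in benign tissue and from 4.29 to 7.98 in tumors. These type I keratins of the luminal layer were near each other in benign tissue and far apart in every tumor.

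The ratio between the partners of a pair varied among samples, and the groups overlapped for both pairs. Krt8 over Krt18, per kb, ranged from 0.698 to 1.17 in benign tissue and from 0.466 to 0.867 in tumors. There 2 of 6 tumors lay below every benign sample, with tumor 5 the lowest. Krt5 over Krt14, per kb, ranged from 0.918 to 1.43 in benign tissue and from 0.110 to 3.48 in tumors, where most values rest on few counts. The sum of the type II members over that of the type I members ranged from 0.350 to 0.551 in benign tissue and from 0.468 to 0.859 in tumors, with 5 of 6 tumors above every benign sample.

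Over all 12 samples, the correlations between keratins did not sort by layer. With each group centered on its mean log2 CPM, Krt8 and Krt18 had r = 0.88 over the 12 samples. Krt5 had r = 0.77 with Krt15 and 0.70 with Krt14 over the same samples. Other pairs of 1 layer were lower, at 0.06 for Krt14 and Krt17, 0.26 for Krt5 and Krt17, 0.24 for Krt18 and Krt19 and 0.32 for Krt8 and Krt19. Some pairs across the layers were higher than these, at 0.69 for Krt19 and Krt14, 0.62 for Krt18 and Krt17 and 0.60 for Krt7 and Krt17. In the 6 benign samples alone, those pairs of 1 layer had r = 0.80, 0.67, 0.78 and 0.77, in the same order. The pairs across the layers had 0.06, 0.06 and -0.22 there, but Krt8 had 0.78 with Krt5 and 0.79 with Krt15. In tumors several basal values rest on few counts. Within the 6 benign samples, r with the Epcam and Cdh1 mean was 0.99 for Krt5, 0.97 for Krt15, 0.85 for Krt14 and 0.84 for Krt8, against 0.39 for Krt19 and -0.03 for Krt7. These values are descriptions over samples that share library scaling and tissue make-up.

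The genes most like each member were sought among 10811 genes with a mean of at least 10 CPM, by r of group-centered log2 CPM over 12 samples. For Krt5 the most alike was Col17a1 (r = 0.97), a collagen of the hemidesmosomes that fasten basal cells to the basement membrane. Col17a1 was at 22.2 to 58.1 CPM in the benign samples and at 0 to 3.97 CPM in the tumors, with tumor 3 again the highest. Dvl3 and Serpinf1 followed at 0.81 each. Krt14 was most like Myl9 (0.90), Rflnb (0.90) and Hivep3 (0.89), Krt15 like Actn4 (0.94), Usp22 (0.89) and Usp43 (0.87), and Krt17 like Rab40c (0.96), Jag1 (0.95) and Thsd1 (0.94). Among the luminal members, Krt18 was most like Nfkbil1 (0.93), Fxyd3 (0.92) and Sema4c (0.90), and Krt8 like Ctxn1, Urah and Samd14 (0.88 each). Krt19 was most like Anxa5 (0.92), Ctnna1 (0.89) and Ltc4s (0.88), and Krt7 like Sptan1 (0.95), Prkd1 (0.94) and Gda (0.93).

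Keratin filaments end at desmosomes between cells, and at hemidesmosomes below basal cells. Of 17 listed desmosome and cytolinker genes 12 were tested, of which 10 were higher, 0 lower and 2 not called per total mRNA (3 higher and 4 lower per epithelial transcript), with a median log2 fold change of 1.91 beside -0.06 over all genes. Over all genes 28.2% were higher per total mRNA and 2.56% per epithelial transcript. Dsc2, a desmosomal cadherin, was at 3.02 to 13.2 CPM in the benign samples, against 95.9 to 146 CPM for the tumors (log2 fold change 3.63 ± 0.32 SE, edgeR, adjusted p = 9.8e-07). Dsp, which links keratins to the desmosome, ranged up to 51.0 CPM in benign tissue and started at 173 CPM among tumors (log2 fold change 2.68 ± 0.23 SE, edgeR, adjusted p = 5.7e-07). Per epithelial transcript the median of the desmosome genes was 0.0016, beside -2.02 over all genes.

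The hemidesmosome genes were mixed. Of 9 tested, 4 were higher, 3 lower and 2 not called per total mRNA (0 higher and 8 lower per epithelial transcript), with a median log2 fold change of -0.37. Over all genes 28.2% were higher and 34.8% lower per total mRNA, and 2.56% and 90.3% per epithelial transcript. Col17a1 had a log2 fold change of -5.13 (-6.19 without tumor 3) and Lama3, a chain of laminin-332, one of -3.34. The integrin chains Itgb4 and Itga6, which bind that laminin, had log2 fold changes of 2.29 and 1.11, and per epithelial transcript 0.43 (adjusted p = 0.18, edgeR) and -0.62 (adjusted p = 0.060, edgeR).

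**Figure D4:**
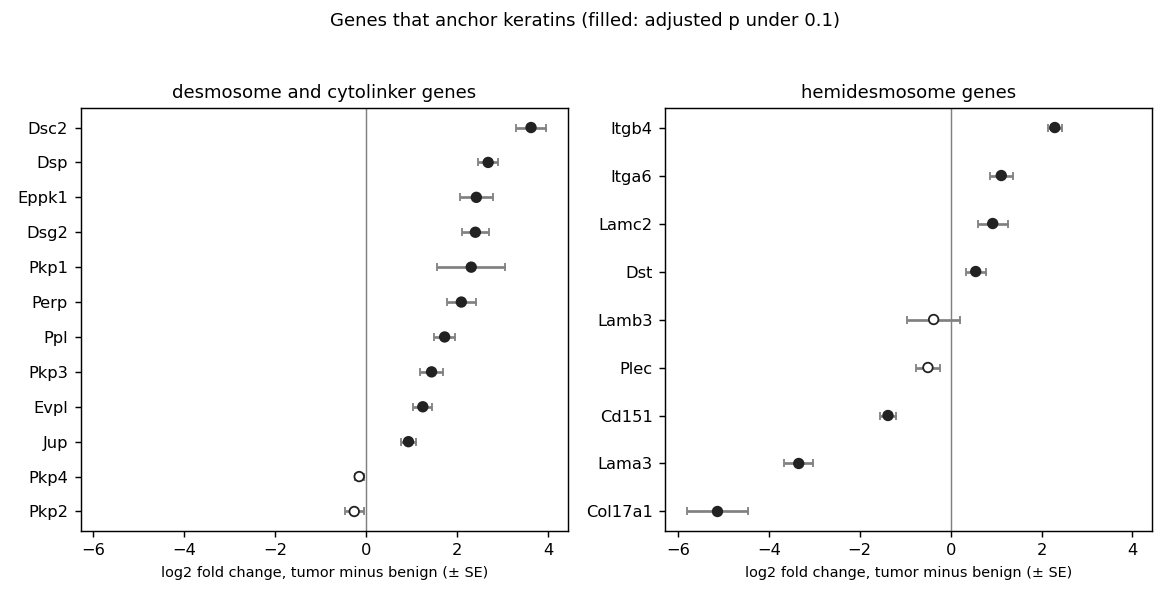
Log2 fold change from benign tissue to tumor (horizontal axis, ± SE, per total mRNA) of the tested desmosome and cytolinker genes and hemidesmosome genes, filled where the adjusted p-value was under 0.1. Desmosome genes other than Pkp2 and Pkp4 lie right of 0 on this scale (3 were higher per epithelial transcript), while the hemidesmosome genes run from -5.13 for Col17a1 to 2.29 for Itgb4.

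Other intermediate filaments were lower or not called except Nes. Of 7 tested, 1 was higher and 4 lower per total mRNA (1 higher and 6 lower per epithelial transcript), with a median log2 fold change of -0.85. The shares of all genes were 28.2% higher and 34.8% lower per total mRNA, and 2.56% and 90.3% per epithelial transcript. Vim, the filament protein of mesenchymal cells, had a mean of 1285 ± 145 CPM over benign samples, against 105 ± 20.1 CPM over tumors (SD, n = 6 each). Des and Synm, filament proteins of muscle, had log2 fold changes of -7.67 and -5.86, and their benign levels were highest in benign samples 3, 4 and 6. Without those 3 samples the log2 fold changes of Des and Synm were -3.11 and -3.004. Nes had a log2 fold change of 2.65.

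The other markers of the 2 layers did not follow 1 direction either. Of 20 luminal epithelial markers 10 were higher and 5 lower per total mRNA (1 higher and 13 lower per epithelial transcript), with a median log2 fold change of 0.77 and summed levels of 920 to 2274 CPM per benign sample and 3617 to 5199 CPM per tumor. The background for higher and lower calls was 28.2% and 34.8% of genes per total mRNA, and 2.56% and 90.3% per epithelial transcript. The list includes Epcam and Cdh1, whose mean is set equal in all samples per epithelial transcript, so these genes cannot inform the counts on that scale. The stem cell factor receptor Kit had a log2 fold change of 2.86 and Spdef, an epithelial transcription factor, one of 2.84 (2.005 without tumor 5). Spdef was at 35.3, 4.54, 1.93, 9.18, 66.5 and 3.07 CPM in tumors 1 to 6 and at 1.67 to 4.99 CPM in the benign samples, so the groups overlapped, and per epithelial transcript it was not called (log2 fold change 1.31, edgeR, adjusted p = 0.10). Foxa1 and Pgr, a transcription factor and the progesterone receptor of hormone-sensing luminal cells, had log2 fold changes of -6.03 and -4.71.

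Of 18 basal and myoepithelial markers tested, of 20 listed, 14 were lower and 3 higher per total mRNA (16 lower and 1 higher per epithelial transcript), with a median log2 fold change of -3.02. Lower calls made up 34.8% of all genes per total mRNA and 90.3% per epithelial transcript, so on the second scale the count of lower markers is no more than the background. The median log2 fold change of these markers on that second scale was -4.96, beside -2.02 over all genes. Cnn1, a contractile protein, and Id4, a regulator of basal cells, had log2 fold changes of -5.74 and -5.85. Tspan8 and Itgb4 had log2 fold changes of 4.41 and 2.29, and that of Tspan8 was 5.25 without benign sample 6, 7.19 without benign samples 3, 4 and 6, and 3.58 without benign samples 1, 2 and 5. The summed level of the list was 1882 to 3067 CPM per benign sample and 1297 to 1610 CPM per tumor. Most of the tumor sum came from Itga6, Tspan8, Itgb4 and Sparcl1, with tumor means of 368, 354, 311 and 292 CPM. Acta2, the highest of the list by mean in benign tissue, went from 494 to 24.3 CPM, so the sum does not describe each marker. Trp63, the p63 factor of basal cells, was at 15.1 to 52.1 CPM in the benign samples and at 1.87 to 14.7 CPM in the tumors, with tumor 3 the highest.

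Markers of the other cell types of the gland were mostly lower in tumors per total mRNA, where 34.8% of all genes were lower and 28.2% higher. All 10 adipocyte genes were lower (summed 19619 to 40207 CPM per benign sample, against 208 to 415 CPM per tumor), as were all 10 fibroblast genes (5245 to 13273 against 540 to 1255 CPM), all 10 endothelial genes (814 to 1524 against 113 to 142 CPM) and all 7 skeletal muscle genes tested. Of 8 immune genes tested 5 were lower, and of 5 brown adipocyte genes 3 were lower and 1 higher. Per epithelial transcript 8 immune and 4 brown adipocyte genes were lower, beside 90.3% of all genes. Their part in the keratin results was not tested beyond the scaling to Epcam and Cdh1. Without benign samples 3, 4 and 6, 2 luminal keratins were still called higher, 1 lower and 4 basal keratins lower.

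Keratins are also expressed by cells that can lie beside the gland. Of 7 listed mesothelial genes 5 are in the table and Rspo1 alone was tested. Rspo1 was at 80.8, 213, 192, 44.0, 158 and 11.4 CPM in benign samples 1 to 6, and at 0 to 1.43 CPM per tumor. The geometric mean of Epcam and Cdh1 was at 154, 276, 263, 152, 330 and 92.0 CPM in the same benign samples. Rspo1 was lowest in benign sample 6, where Gpm6a was highest, so Rspo1 by itself does not show mesothelium. The other 4 mesothelial genes were low but not absent in benign tissue. Msln and Wt1 were at or under 1.79 and 0.534 CPM there. Gpm6a ranged from 1.32 to 5.15 CPM and Lrrn4 from 0.955 to 3.56 CPM in the benign samples, while no tumor exceeded 0.275 and 0.110 CPM. Of 8 listed salivary gland genes 4 are in the table and 2 were tested, 1 higher (Prol1) and 1 lower (Amy1). Amy1 was highest in benign samples 4 and 6, at 253 and 301 CPM. Those samples also had the highest adipocyte sums, at 40207 and 39738 CPM, so Amy1 by itself does not show salivary tissue. The part of mesothelial or salivary cells in the keratin results was not tested.

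The count table holds 42 keratin genes, so 34 lie outside the 8 described. Of these, 6 passed the filter, and 2 were called higher and 2 lower per total mRNA (1 higher and 4 lower per epithelial transcript). Per total mRNA these counts are near the background of 28.2% of genes higher and 34.8% lower. Per epithelial transcript the background was 2.56% and 90.3%. Krt23, a type I keratin, was the only one with a mean of at least 10 CPM in a group. It went from 7.92 ± 5.37 to 30.8 ± 17.3 CPM (SD, n = 6 each), with all tumors above all benign samples and a log2 fold change of 1.94 ± 0.52 SE (edgeR, adjusted p = 0.0066), which per epithelial transcript was 0.44 (edgeR, adjusted p = 0.37).

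Krt83, a hair keratin, had 0 to 5 counts in benign samples and 14 to 228 counts in tumors, with a log2 fold change of 5.09 ± 0.79 SE (edgeR, adjusted p = 0.00013). Of the 31-base words of the Krt83 transcript 39.2% also occur in 9 other genes, most of them (31.3%) in Krt86, which had at most 26 counts in a tumor, and the part of such shared reads was not tested. Krt79 went from 6.85 ± 3.12 to 0.630 ± 0.475 CPM (SD, n = 6 each), with a log2 fold change of -3.39 ± 0.57 SE (edgeR, adjusted p = 0.00022). Krt222 was at 4.05 ± 1.22 CPM in benign tissue and had 0 counts in every tumor, at least 10.4-fold lower when tumors are set at 3 counts per library.

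Tumor 3 stood apart in the keratins of skin and hair. It held the highest count of the 12 samples for 22 of the 34 other keratins, and 15 of the 34 had counts in tumor 3 and none in the other 5 tumors. Krt71 had 94 counts there, Krt27 53, Krt25 49, Krt77 46 and Krt33a 37, genes named here after their values were seen. The summed level of the hair follicle list, of which 21 of 24 genes are in the table, was 85.3 CPM in tumor 3, 2.89 to 25.2 CPM in the other tumors and 4.79 to 13.5 CPM in benign tissue, and Krt33a, Krt34 and Krt81 were at 0 in all benign samples. The epidermis list, with 13 of 19 genes in the table, summed to 29.7 to 88.5 CPM in tumors, with tumor 3 the highest, and to 26.6 to 55.3 CPM in benign tissue. Tumor 3 was also the tumor with the most Krt5, Krt7, Krt14, Krt15 and Krt19, and the part of skin or hair in those values was not tested. Without tumor 3 all 5 lower keratins stayed lower, with log2 fold changes of -5.19 for Krt19, -5.88 for Krt5, -5.69 for Krt14, -7.00 for Krt15 and -2.74 for Krt17. Krt7 was then at -1.17 and was still not called (edgeR, adjusted p = 0.23).

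**Figure D5:**
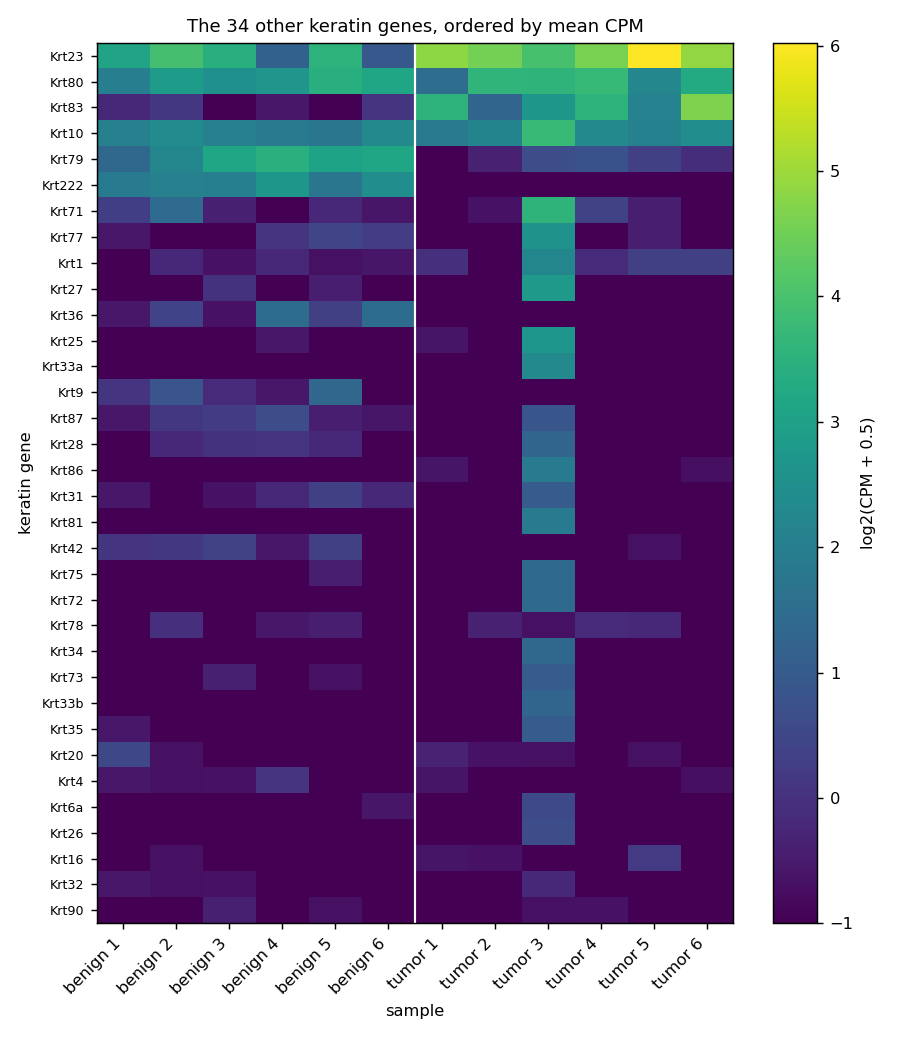
Log2(CPM + 0.5) of the 34 keratin genes outside the 8 (rows, ordered by mean CPM) in each benign and tumor sample (columns). Krt23 and Krt83 are brighter in tumors (Krt23 was not called per epithelial transcript), Krt222 is dark in all tumors, and the tumor 3 column is bright for hair and epidermal keratins such as Krt71, Krt77, Krt27 and Krt25.

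Keratin transcripts resemble each other, which can move counts between genes. Of the 31-base words of the Krt8 transcript 32.2% occur in the pseudogene Krt8-ps, of those of Krt14 18.2% in Krt16, of Krt17 11.8% in Krt14, of Krt5 9.46% in Krt6a and of Krt18 9.31% in Gm5200. Krt16 and Krt6a had at most 5 and 8 counts in any sample. Krt8-ps and Gm5200 are not in the count table, so their counts cannot be compared with those of Krt8 and Krt18. Krt19 shares 0.517% of its words with other genes.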

How the data were processed

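RNA-seq was performed on 6 tumors and 6 benign mammary samples. The authors extracted total RNA with TRIzol and the RNeasy kit, enriched poly A RNA, prepared directional libraries, sequenced paired reads, and trimmed and quantified them with Trim Galore and Salmon against mm10, per the submitters' processing notes, which give no versions. The table the authors deposited gives an estimated count for each gene, rounded to a whole number and unscaled. Every gene in it sums to 5 counts or more, and it has 0 columns without a sample. Salmon shares reads among similar transcripts, which can move counts between related keratins.

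Here, low genes were removed by filterByExpr (group as factor, at least 10 counts, total of at least 15) and libraries were scaled with TMM. Tumor and benign samples were compared in edgeR 4.0.16 (R 4.3.3) by the two-sided quasi-likelihood test, and p-values were adjusted by Benjamini and Hochberg over 13191 genes, at the study's threshold of 0.1. Log2 CPM used 2 added counts, and SEs are the fold change over the root of F. Per epithelial transcript, libraries were scaled to the mean log2 CPM of Epcam and Cdh1. Levels per length used the longest GENCODE M21 transcript. Whether the authors used that annotation is not given in the sources used here. Each replicate pair differed by more than sampling noise (smallest chi-square per degree of freedom 13.0 in benign tissue and 17.2 in tumors). A gene at or under 3 counts in every sample of a group gave a lower bound, and such floors cover counting error only.

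The 8 keratins and all lists were chosen with earlier results of these data known. Named genes are the members, other keratins with a mean of at least 10 CPM in a group, the 2 largest rises and falls among called genes of the keratin, epithelial, anchoring and filament lists, and the 3 genes most like each member. For other cell types counts and sums are mainly given. Vim, Trp63, Acta2, Sparcl1, Msln, Wt1, Gpm6a, Lrrn4, Krt16, Krt6a and the keratins named for tumor 3 fall outside this rule and were chosen after their values were seen, and Erbb2, Epcam and Cdh1 serve as checks. Krt10 also falls outside it and is named because the check for outlying samples flagged it. Alternatives were DESeq2 1.42.0, upper-quartile scaling, total counts, 2 other filters, the 0.05 threshold, a block for the replicate number, fits that each lacked 1 sample or benign samples 3, 4 and 6 or benign samples 1, 2 and 5, other added counts, and other reference genes.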

Additional observations from a re-analysis of the deposited data

Results flagged for a closer look

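Of 44 groups of 6 values checked, 3 held a sample whose gap to its nearest neighbor was larger, relative to the range of the group, than Dixon's 95% critical value, and chance flags about 1 in 20 groups. All 3 are tumor 3. Krt10, a keratin of the upper epidermis that was not called between tumor and benign tissue, was at 3.72 log2 CPM in tumor 3, and the nearest tumor was at 2.38. The share of Krt8 and Krt18 in the 8 keratins, per kb, was 93.3% in tumor 3, and the nearest tumor was at 97.5%. The summed level of the hair follicle list was 85.3 CPM in tumor 3, and the nearest tumor was at 25.2 CPM.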

How the results depend on the processing

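The calls on the 8 keratins per total mRNA held in direction and side of the threshold in all 163 fits of a member under an alternative, with 2 luminal keratins higher, 1 lower and 4 basal keratins lower in each setting that tested all 8. Requiring at least 10 counts in every sample removed Krt5, Krt7, Krt14, Krt15 and Krt17, so no member counts could be given there. The 8314 calls over all genes ranged from 6928 to 10054 under other settings and from 7987 to 8563 with 1 sample left out. With at least 10 counts in every sample 53.1% of calls were higher, against 44.7%. Luminal minus basal was 4.01 with 0.5 and 3.17 with 5 added counts, against 3.59, and 3.32 to 3.86 with 1 sample left out. Per epithelial transcript, Krt18 was at 0.032 when scaled to Cdh1 alone (edgeR, adjusted p = 0.95) and at -0.85 when scaled to Epcam alone (edgeR, adjusted p = 0.025), against -0.40, and the cause was not tested. Krt8 lost its lower call with Cldn7 added (-0.57) and at a threshold of 0.05. The labels number both groups from 1 to 6, but the mice differ, and same-numbered samples correlated at -0.12 to 0.10 after centering. With the replicate block 7710 genes were called, Krt17 was at -3.34, Krt5 at -5.32 and Krt7 at -1.62 (edgeR, adjusted p = 0.17), and the block changed no call on the 8 keratins. Depth limits Krt15 in tumors, where 5 of 6 libraries held at most 3 counts.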
